A study of Mus musculus with 15 samples.

Results

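The 10 genes described here encode proteins of the adherens and tight junctions, the contacts by which neighbouring endothelial cells hold together and control what passes between them. They were listed by gene symbol, with earlier results of these data known, and are Cdh5, Ctnnb1, Jup, Ctnnd1, Cldn5, Esam, F11r, Jam2, Jam3 and Tjp1. All 10 of 10 symbols matched a row of their own among the 45706 genes of the deposited table, and all 10 passed the filter on low counts. Their RNA was measured by poly-A selected sequencing in cultured lymphatic endothelial cells (LECs), which line the sinuses and vessels through which lymph passes a node. LECs were the Pdpn+ CD31+ CD45- cells of axillary, brachial, cervical, inguinal and popliteal nodes, pooled, of female C57Bl/6 mice; the sources used here do not give the age. The comparison asks how LECs respond to VEGF-C, a secreted growth factor that acts on them mainly through the receptor Flt4. The 3 groups were unstimulated cells and cells kept for 72 h with 10 or with 100 ng/mL of purified murine VEGF-C, expressed in HEK-293E cells, with 5 libraries (A to E) in each group. All groups shared the same culture medium, MEMα with fetal bovine serum and antibiotics. Whether a group's 5 libraries were grown apart is not stated, and the p-values therefore reflect only how libraries differed, which may be technical.

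In the adherens junction, VE-cadherin molecules of adjacent cells bind each other, and the tail of VE-cadherin inside the cell binds beta-catenin or its close relative plakoglobin, which connect it through alpha-catenin to actin. p120-catenin binds the same tail nearer the membrane and keeps VE-cadherin at the cell surface. In the tight junction, claudin-5 strands and the immunoglobulin-like molecules ESAM and JAM-A, JAM-B and JAM-C seal the gap, and the scaffold ZO-1 ties them to actin. In lymphatic vessels these proteins form discontinuous button-like junctions in the initial capillaries, where fluid and cells enter, and continuous zipper-like junctions in the collecting vessels.

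Libraries held 27784906 to 38590841 estimated counts. Abundances are given as CPM, the count of a gene relative to the library total after TMM scaling of the totals. On the first principal component of log2 CPM, which held 64.8% of the variance, the 100 ng/mL library B lay at 38.8, against 69.8 to 78.5 for the other 4 libraries of its group. This library and the libraries D at 10 ng/mL and E of unstimulated cells had the lowest scores on the second component within their groups. Without these 3 libraries 7 of the 10 genes were called at 100 ng/mL against unstimulated cells, as with them. Transcripts of the sorting markers Pdpn and Pecam1 were detected in every library, and the pan-leukocyte gene Ptprc lay between 1.57 and 6.95 CPM. The LEC and endothelial markers Prox1, Pdpn, Lyve1, Flt4 and Pecam1 summed to 2404 to 2870 CPM without VEGF-C, 2805 to 2984 CPM at 10 ng/mL and 3602 to 5875 CPM at 100 ng/mL. Not all of them were called at 100 ng/mL against unstimulated cells. Lyve1 and Flt4 were called higher, Pecam1 narrowly so, and Prox1 and Pdpn were not called (edgeR adjusted p = 0.0589 and 0.453).

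Markers of other cell types also moved with the 100 ng/mL dose. Against unstimulated cells, 21.4% of all 17650 genes tested were called higher at this dose and 21.5% lower. Of 17 tested fibroblastic and mural markers 14 fell and 1, Vim, rose. Without Vim, which endothelial cells express too, the list summed to 962 to 1411 CPM at 100 ng/mL, against 3240 to 4717 CPM in unstimulated cells. None of the 18 genes of that list was at 0 in a whole group. Of 11 tested leukocyte markers 10 fell, with sums of 18.0 to 40.3 CPM at 100 ng/mL and 50.9 to 146 CPM in unstimulated cells, and Cd3g and Cd8a were at 0. Of 7 tested epithelial markers 4 fell and 1 rose, with sums of 31.7 to 61.0 CPM at 100 ng/mL and 84.3 to 136 CPM in unstimulated cells, and Epcam never exceeded 0.149 CPM. Of 17 tested blood endothelial markers 9 fell and 4 rose, with sums of 4313 to 5243 CPM at 100 ng/mL and 5386 to 6889 CPM in unstimulated cells. Their part in the results on the junction genes was not tested. In bulk RNA, fewer cells of a type and less RNA per cell cannot be told apart.

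The junction genes did not move as a block at 100 ng/mL. VE-cadherin, both of its tail-binding partners beta-catenin and plakoglobin, and claudin-5 rose relative to unstimulated cells. ESAM, JAM-B and JAM-C fell, and p120-catenin, JAM-A and ZO-1 were not called. This was 4 genes called higher and 3 called lower of 10, at an adjusted p under 0.05 in edgeR's quasi-likelihood test with Benjamini-Hochberg adjustment over all genes. Over all 17650 genes tested, 42.9% were called in this comparison, 21.4% higher and 21.5% lower, so that a change in itself was common. The median log2 fold change was -0.03 over the 10 genes and 0.008 over all genes tested.

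**Figure D1:**
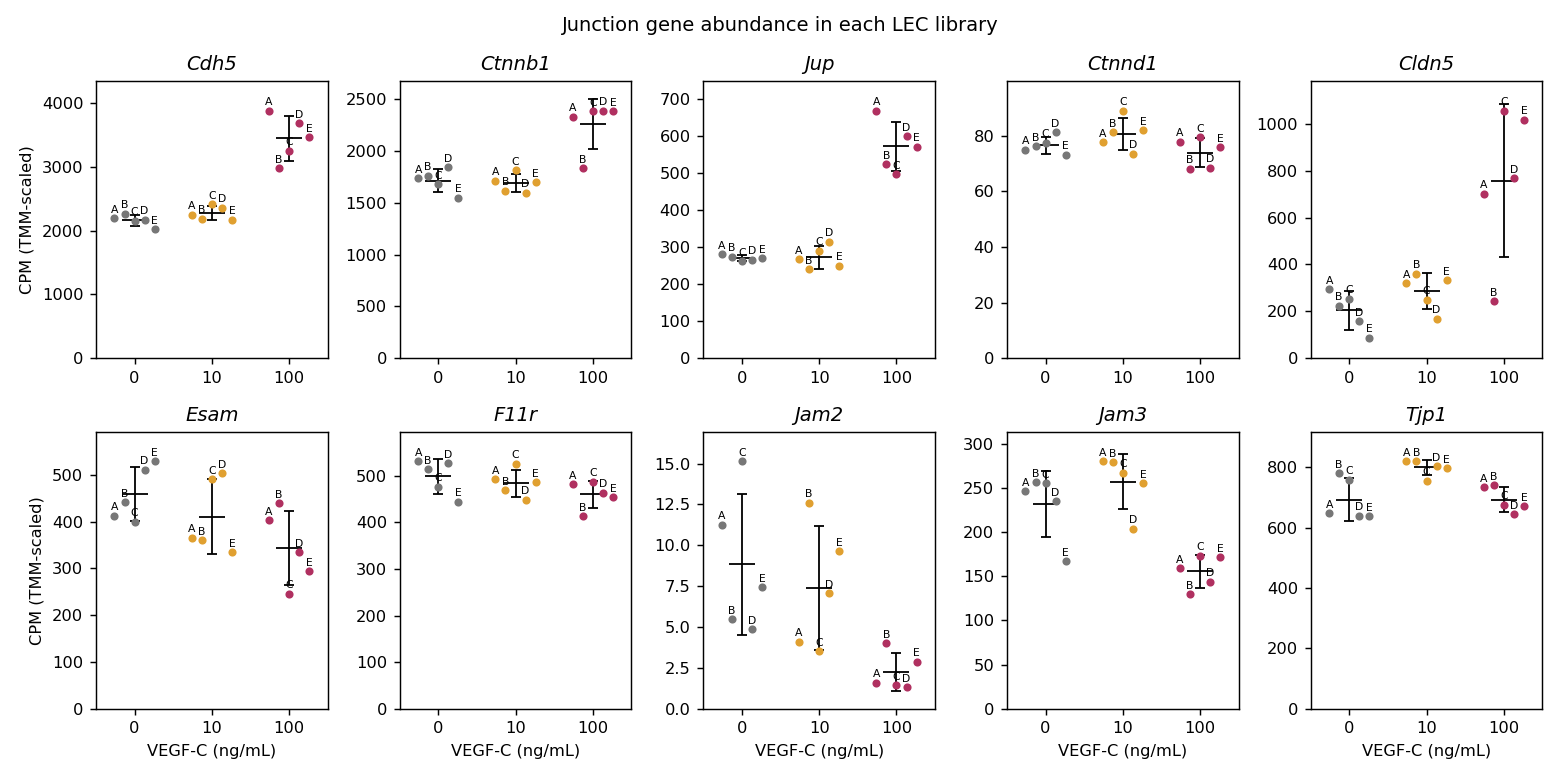
TMM-scaled CPM (y axes, from 0) of the 10 junction genes in each library, lettered A to E, against the VEGF-C dose in ng/mL (x axes). Black marks are the mean and SD of 5 libraries; Cdh5 and Jup libraries at 100 ng/mL all lie above the other 10, while the Cldn5 library B at 100 ng/mL, at 243 CPM, lies among the lower doses.

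Cdh5 encodes VE-cadherin, the defining cadherin of endothelial cells, and was the most abundant of the 10 genes in every group. The gene (ENSMUSG00000031871) lies at chr8:104101625-104144511 on the + strand of GRCm38. In unstimulated cells its level was 2193, 2266, 2153, 2172 and 2025 CPM in libraries A to E. It was 2251, 2183, 2409, 2357 and 2171 CPM at 10 ng/mL. It was 3879, 2976, 3254, 3679 and 3462 CPM at 100 ng/mL. Every 100 ng/mL library lay above all 10 others, whereas the 2 lower doses overlapped. Cdh5 rose to 3449.9 ± 353 CPM at 100 ng/mL, against 2162 ± 87.7 CPM in unstimulated cells (SD, n = 5 each), a log2 fold change of 0.67 ± 0.07 (SE, edgeR adjusted p = 3.23e-06). Groups that do not overlap were found for 27.2% of all genes tested. Of all genes tested, 13.5% were wholly higher and 13.7% wholly lower at 100 ng/mL. Among the 10 genes Cdh5 and Jup were wholly higher and Jam2 was wholly lower.

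The catenins that bind the VE-cadherin tail did not rise equally. Ctnnb1 (ENSMUSG00000006932, chr9:120929216-120960507, + strand) encodes beta-catenin, which also acts as a transcriptional co-activator in Wnt signalling. Its level was 1736, 1763, 1678, 1845 and 1549 CPM in unstimulated libraries A to E. It was 1713, 1619, 1814, 1597 and 1701 CPM at 10 ng/mL. It was 2333, 1834, 2385, 2391 and 2386 CPM at 100 ng/mL. The 100 ng/mL libraries other than B were tightly grouped and above all others, and library B fell within the unstimulated range. Ctnnb1 rose to 2266 ± 243 CPM at 100 ng/mL, against 1714 ± 110.4 CPM in unstimulated cells, a log2 fold change of 0.40 ± 0.08 (edgeR adjusted p = 0.00073). With single libraries left out it ranged from 0.37 without unstimulated E (edgeR adjusted p = 0.00205) to 0.47 without 100 ng/mL B (adjusted p = 2.4e-05). In the annotation 12.25% of the gene's 50-base windows also occur in transcripts of the overlapping gene Ulk4, whose own level averaged 0.359 CPM at 100 ng/mL and 0.449 CPM in unstimulated cells.

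Jup (ENSMUSG00000001552, chr11:100368958-100397763, - strand) encodes plakoglobin, or gamma-catenin, which can take the place of beta-catenin on the cadherin tail and is also a component of desmosomes. Its unstimulated levels were 281, 274, 262, 265 and 269.9 CPM in libraries A to E, the narrowest relative spread of the 10 genes in that group (coefficient of variation 2.81%). Jup had 267, 241, 291, 315 and 249.6 CPM at 10 ng/mL. It had 668, 523, 497, 599 and 571 CPM at 100 ng/mL. The 100 ng/mL libraries, B included, all lay far above the other 10. Jup averaged 572 ± 67.1 CPM at 100 ng/mL and 271 ± 7.60 CPM in unstimulated cells, a 2.11-fold rise (log2 1.08 ± 0.09, edgeR adjusted p = 1.97e-07), the smallest p of the 10 genes.

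Ctnnd1 (ENSMUSG00000034101, chr2:84600071-84650765, - strand) encodes p120-catenin. It lay between 73.1 and 81.3 CPM in unstimulated, between 73.5 and 89.0 CPM in 10 ng/mL and between 68.2 and 79.4 CPM in 100 ng/mL libraries, and all 3 ranges overlapped. It averaged 74.0 ± 5.27 CPM at 100 ng/mL and 76.6 ± 3.07 CPM in unstimulated cells, and was not called (log2 fold change -0.05 ± 0.06, edgeR adjusted p = 0.522). In the annotation 56.74% of its 50-base windows also occur in the overlapping gene model Gm28635, which is listed at 0 in every library, so the level of Ctnnd1 depends on how such reads were assigned.

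Of the 4 genes that rose, RefSeq promoter windows of 250 bases before to 50 bases after the transcript start on GRCm38.p6 were matched for Cldn5, Jup and Ctnnb1, and of the other genes for Ctnnd1, F11r and Tjp1. Those of claudin-5 and plakoglobin are shown because these genes had the largest rises of the 10. Capitals mark matches, on either strand, to any of 5 motifs searched. The motif CCGGAA is the core that transcription factors of the ETS family bind. For the SOX family the letters AACAAT were searched, and for the FOX family the letters TGTTTAC. The other motifs searched were the GC box, with the letters GGGCGG, and the box of core promoters with the letters TATAAA. No matches overlapped in the windows shown. The sequences are at chr16:18776597-18776896 on the + strand for Cldn5 and chr11:100397741-100398040 on the - strand for Jup, 5′ to 3′ along the gene.
Cldn5: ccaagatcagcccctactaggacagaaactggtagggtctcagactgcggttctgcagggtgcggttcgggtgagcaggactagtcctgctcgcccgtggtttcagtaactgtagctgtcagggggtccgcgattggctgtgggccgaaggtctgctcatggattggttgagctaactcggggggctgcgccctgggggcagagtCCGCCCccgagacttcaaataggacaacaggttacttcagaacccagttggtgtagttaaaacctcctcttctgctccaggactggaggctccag
Jup: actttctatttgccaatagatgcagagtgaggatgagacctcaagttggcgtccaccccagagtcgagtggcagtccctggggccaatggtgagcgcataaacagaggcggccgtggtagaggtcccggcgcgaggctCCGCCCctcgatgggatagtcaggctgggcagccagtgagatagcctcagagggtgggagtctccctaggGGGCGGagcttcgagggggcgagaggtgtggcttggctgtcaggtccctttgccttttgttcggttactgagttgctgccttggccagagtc
The Cldn5 window holds 1 GC box, 45 bases before the start, and the Jup window holds 2, at 112 and 42 bases before it. GC boxes were also found in the windows of Ctnnb1, F11r and Tjp1, and of all 32851 promoter windows 35.7% hold this motif. The ETS, SOX and FOX letters occur in neither of the printed windows, against 14.9%, 10.7% and 3.65% of all windows. GC boxes were thus found in windows of genes that rose and of genes that were not called. A match is a run of letters, not a measured site.

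Cldn5 (ENSMUSG00000041378, chr16:18776847-18778262, + strand) encodes claudin-5, the main sealing claudin of endothelial tight junctions. It had the largest rise of the 10 genes and also the widest spread among the genes that rose. Its levels were 295, 223, 255, 158 and 87.5 CPM in unstimulated libraries A to E. Under 10 ng/mL they were 321, 359.9, 249.1, 169 and 333 CPM. Under 100 ng/mL they were 702, 243, 1056, 768 and 1018 CPM. The 100 ng/mL libraries other than B lay above all 10 others, and library B lay inside the range of the lower doses. Cldn5 averaged 757 ± 326 CPM at 100 ng/mL and 204 ± 82.0 CPM in unstimulated cells, a 3.72-fold rise (log2 1.90 ± 0.38, edgeR adjusted p = 0.000883). Leaving out single libraries, the log2 fold change ranged from 1.70 without unstimulated E (edgeR adjusted p = 0.00167) to 2.12 without 100 ng/mL B (adjusted p = 6.4e-05).

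The spread of Cldn5 ran partly alongside that of Prox1, the transcription factor of lymphatic identity. This factor was not itself called at 100 ng/mL (log2 fold change 0.98 ± 0.40, edgeR adjusted p = 0.0589). With single libraries left out, its adjusted p ran from 0.0185 without 100 ng/mL B to 0.168 without 100 ng/mL C. Prox1 was lowest in unstimulated E at 102 CPM, in 10 ng/mL D at 158 CPM and in 100 ng/mL B at 193 CPM, the libraries with the lowest Cldn5 of each group. At 100 ng/mL the 5 libraries had the same order for both genes, C, E, D, A and B from high to low. In the unstimulated and 10 ng/mL groups the orders of the 2 genes differed. Other LEC markers did not all follow Cldn5 there. Pdpn and Lyve1 were highest in unstimulated E (181 and 185 CPM) and in 10 ng/mL D (156 and 272 CPM). Flt4 and Pecam1 were lowest in unstimulated E (496 and 1441 CPM), as Cldn5 was. At 10 ng/mL they were lowest in other libraries than D, Flt4 in C (676 CPM) and Pecam1 in B (1613 CPM). At 100 ng/mL Lyve1, Flt4 and Pecam1 were lowest in B (558, 1121 and 1607 CPM) and Pdpn in A (80.9 CPM). Without the library of each group that was lowest for both genes, the log2 fold change of Cldn5 was 1.93 (edgeR adjusted p = 6.04e-06). Leaving out the lowest Cldn5 libraries narrows its spread by construction, so the smaller p adds no support for the rise.

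Esam (ENSMUSG00000001946, chr9:37528078-37538319, + strand) encodes an endothelial immunoglobulin-like adhesion molecule of the tight junction. It measured 413, 441, 400.0, 511 and 529 CPM in unstimulated libraries A to E. It measured 366, 360.1, 491, 504 and 334 CPM at 10 ng/mL. It measured 403, 439, 246, 334 and 294 CPM at 100 ng/mL. The 100 ng/mL libraries C, D and E were below all unstimulated ones and A and B were not. Its order among the 100 ng/mL libraries, B, A, D, E and C from high to low, was the reverse of that of Cldn5. Esam fell to 343 ± 78.6 CPM at 100 ng/mL, against 459 ± 58.1 CPM in unstimulated cells, a log2 fold change of -0.42 ± 0.16 that passed narrowly (edgeR adjusted p = 0.0456). The call was lost in 9 of 26 alternatives, at adjusted p-values of 0.0524 to 0.105, including each fit without unstimulated B, D or E, without 10 ng/mL A, or without 100 ng/mL C, D or E.

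The junctional adhesion molecules of the JAM family, which also guide leukocytes across endothelium, fell or were not called at 100 ng/mL. F11r (ENSMUSG00000038235, chr1:171437535-171464603, + strand) encodes JAM-A, the most abundant of them. Its unstimulated libraries spanned 444 to 531 CPM, those at 10 ng/mL 448 to 526 CPM and those at 100 ng/mL 413 to 487 CPM, and the 3 ranges overlapped. It averaged 460.2 ± 29.3 CPM at 100 ng/mL and 499 ± 37.0 CPM in unstimulated cells (log2 fold change -0.12 ± 0.06, edgeR adjusted p = 0.167). With library size alone as the scaling it passed (adjusted p = 0.0391).

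Jam3 (ENSMUSG00000031990, chr9:27097384-27155421, - strand) encodes JAM-C. It measured 247, 256, 256, 235 and 167 CPM in unstimulated libraries A to E. The 10 ng/mL libraries held 280.1, 279, 267, 204 and 255 CPM. The 100 ng/mL libraries held 159, 129.9, 173, 144 and 172 CPM. Every 100 ng/mL library was below every 10 ng/mL library, and the overlap with the unstimulated group came from unstimulated E. Jam3 fell to 156 ± 18.6 CPM at 100 ng/mL, against 232 ± 37.3 CPM in unstimulated cells (log2 fold change -0.58 ± 0.12, edgeR adjusted p = 0.00145). The annotation has an antisense gene, Gm48796, across 29.35% of its 50-base windows, and the deposited table has no row under that name. Without a stated use of strand in the counting, the reads of the 2 cannot be told apart.

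Jam2 (ENSMUSG00000053062, chr16:84774123-84825928, + strand) encodes JAM-B, the partner that JAM-C binds on neighbouring cells. It was the scarcest of the 10 genes, at 36 to 120 estimated counts per 100 ng/mL library and 158 to 488 per unstimulated library. It measured 11.3, 5.49, 15.1, 4.89 and 7.45 CPM in unstimulated libraries A to E. Cells with 10 ng/mL had 4.10, 12.6, 3.52, 7.06 and 9.64 CPM. Cells with 100 ng/mL had 1.59, 4.01, 1.44, 1.31 and 2.87 CPM. All 100 ng/mL libraries were below all unstimulated ones, and 100 ng/mL B overlapped the 10 ng/mL group. Jam2 fell to 2.25 ± 1.17 CPM at 100 ng/mL, against 8.85 ± 4.31 CPM in unstimulated cells (log2 fold change -1.97 ± 0.44, edgeR adjusted p = 0.00197).

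The level of Jam2 ran alongside that of Pdgfrb, the receptor that marks pericytes and other mural cells. Pdgfrb measured 94.3, 40.2, 100.6, 30.2 and 49.4 CPM in unstimulated libraries A to E, and 36.5, 81.9, 22.2, 39.1 and 71.3 CPM at 10 ng/mL. The 5 libraries had the same order for both genes in each of these groups. Under 100 ng/mL Pdgfrb measured 6.17, 25.3, 17.7, 12.4 and 27.9 CPM. Libraries B and E were the highest for both genes there, but the orders differed. Other markers of the fibroblastic and mural list did not all follow Jam2. In unstimulated D, where Jam2 was lowest, Acta2 was highest of its group at 383 CPM and Dcn was lowest at 464 CPM. The part of mural RNA in the fall of Jam2 was not tested.

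Tjp1 (ENSMUSG00000030516, chr7:65296165-65527781, - strand) encodes ZO-1, the scaffold beneath both kinds of junction. It measured 648, 779.7, 759, 639 and 638 CPM in unstimulated libraries A to E. Its 10 ng/mL levels were 819, 819, 756, 804 and 797 CPM. Its 100 ng/mL levels were 733, 740.4, 676, 645 and 670.4 CPM. The unstimulated and 100 ng/mL ranges overlapped widely, and the 10 ng/mL libraries stood above every 100 ng/mL library. Tjp1 averaged 693 ± 41.8 CPM at 100 ng/mL and 693 ± 70.3 CPM in unstimulated cells (log2 fold change 0.00 ± 0.07, edgeR adjusted p = 0.994).

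At 10 ng/mL none of the 10 genes was called against unstimulated cells, and neither was any of the 17650 genes tested (0.0%) by edgeR's quasi-likelihood test, which took the libraries as unpaired. That none was called does not show that the levels were the same. At an unadjusted p under 0.05, 1 of the 10 genes and 4.78% of all genes passed. The DESeq2 Wald test called 10 genes in all and limma-voom 0, none of them among the 10 junction genes. Tjp1 was the gene with the unadjusted p of 0.00841, at 799 ± 26.0 CPM at 10 ng/mL and 693 ± 70.3 CPM in unstimulated cells (log2 fold change 0.21 ± 0.07, adjusted p = 0.969), and 4 of 5 libraries at 10 ng/mL lay above all unstimulated ones. None of the 10 genes was wholly higher or wholly lower at 10 ng/mL, against 0.878% and 0.436% of all genes tested (1.31% in all). Cldn5 had the largest fitted difference, at 286 ± 77.3 CPM at 10 ng/mL and 204 ± 82.0 CPM in unstimulated cells (0.49 ± 0.37, adjusted p = 0.969). The other 8 log2 fold changes lay between -0.26 ± 0.40 for Jam2 and 0.15 ± 0.12 for Jam3, and the median of the 10 was 0.04, against -0.003 over all genes. Cdh5 differed by 0.07 ± 0.07, Ctnnb1 by -0.02 ± 0.08 and Jup by 0.01 ± 0.08 on the log2 scale.

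Between the 2 doses the pattern resembled that against unstimulated cells in its values, but the comparisons share the 100 ng/mL libraries. Against 10 ng/mL, 4 of the 10 genes were called higher at 100 ng/mL and 3 lower, where 40.5% of all genes were called, 19.9% higher and 20.6% lower. The log2 fold changes of the genes that rose were 1.40 ± 0.37 for Cldn5 (edgeR adjusted p = 0.00728), 1.07 ± 0.08 for Jup (2.56e-07), 0.60 ± 0.07 for Cdh5 (1.08e-05) and 0.42 ± 0.08 for Ctnnb1 (0.000528). Jam2 fell by 1.71 ± 0.43 (adjusted p = 0.00578) and Jam3 fell by 0.72 ± 0.12 on the log2 scale (0.000261). Tjp1 was called here, at 693 ± 41.8 CPM at 100 ng/mL and 799 ± 26.0 CPM at 10 ng/mL (-0.21 ± 0.07, edgeR adjusted p = 0.0249), but not without 10 ng/mL A or B or 100 ng/mL D or E (adjusted p of 0.0536 to 0.0699). Esam (-0.26 ± 0.16, adjusted p = 0.213), Ctnnd1 (-0.13 ± 0.06, 0.101) and F11r (-0.07 ± 0.06, 0.391) were not called. Ctnnd1 passed without 10 ng/mL D (adjusted p = 0.0427) and with a filter of 10 CPM in 5 libraries (0.0404). The groups did not overlap for Cdh5, Ctnnb1, Jup, Jam3 and Tjp1, that is 5 of the 10 genes, against 25.6% of all genes tested.

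**Figure D2:**
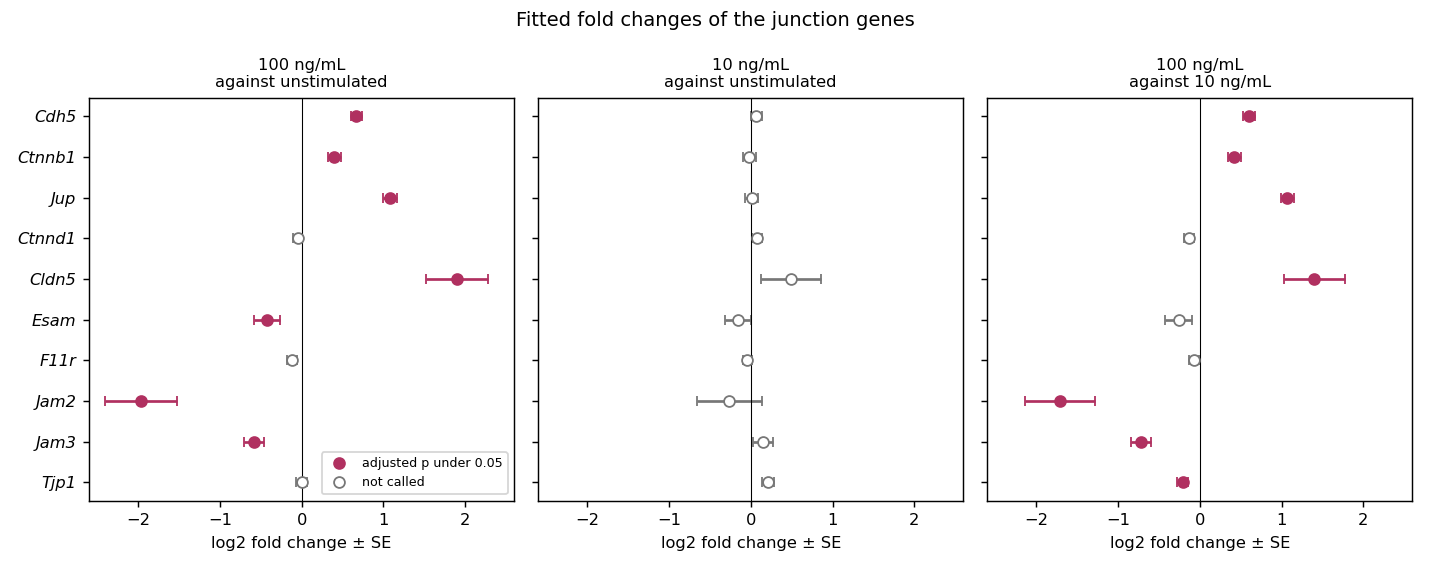
Log2 fold changes (x axes) of the 10 junction genes (rows) with their standard errors in the 3 comparisons, from edgeR's quasi-likelihood model over 15 libraries. Filled points passed an adjusted p of 0.05, 7 in each comparison that involves 100 ng/mL and 0 at 10 ng/mL against unstimulated cells.

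Levels of different genes can be set side by side per length, in RPKM (reads per kilobase of gene length, scaled to the library total), as deposited. With 100 ng/mL Cdh5 averaged 453, Cldn5 281 and Ctnnb1 245 RPKM. In unstimulated cells Cdh5 averaged 291 and Ctnnb1 190.4 RPKM, and Cldn5, at 77.5 RPKM, could not be told by its range from F11r (100.6), Esam (86.0), Tjp1 (50.5) or Jam3 (49.1). In both lower-dose groups every Ctnnb1 library exceeded every Cldn5 library, whereas at 100 ng/mL Cldn5 was above Ctnnb1 in 4 of 5 libraries and the ranges overlapped. Jup averaged 46.5 RPKM at 100 ng/mL and lay above Jam3, at 32.1 RPKM, with no overlap of ranges. In unstimulated cells Jup averaged 22.6 RPKM and lay below Jam3 in every library. Ctnnd1, at 13.66 to 14.96 RPKM, and Jam2, at 0.201 to 0.813 RPKM, were the lowest of the 10 genes by group mean at every dose. The place of Ctnnd1 may depend on how reads shared with Gm28635 were assigned. The order at 10 ng/mL was Cdh5, Ctnnb1, Cldn5, F11r, Esam, Tjp1, Jam3, Jup, Ctnnd1 and Jam2, with the neighbouring ranges from Cldn5 to Esam and those of Tjp1 and Jam3 overlapping.

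**Figure D3:**
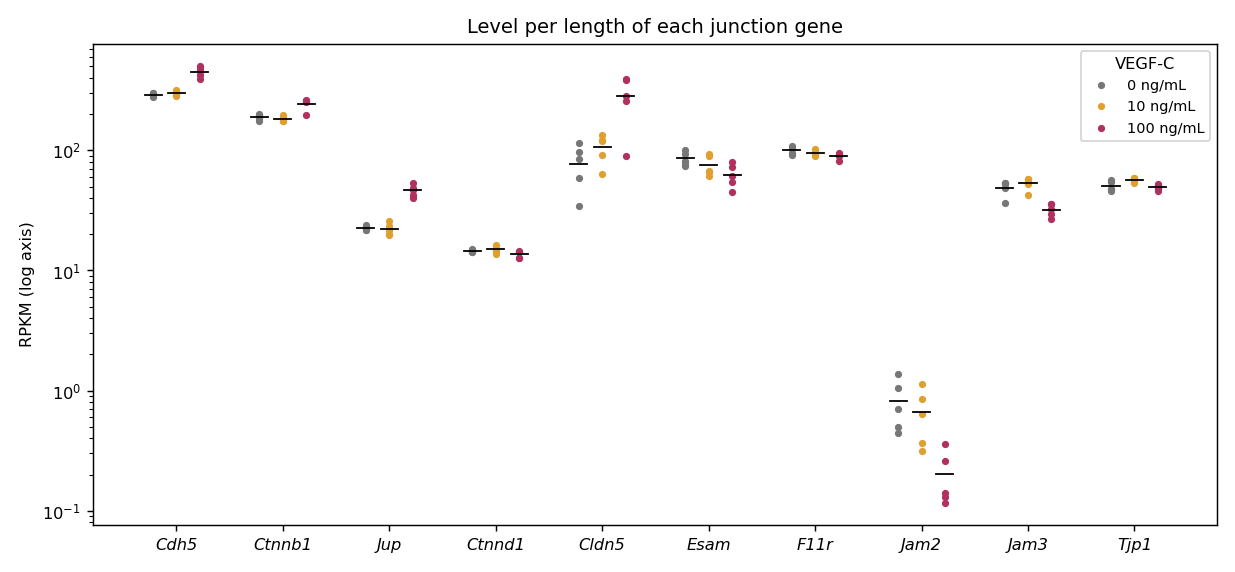
RPKM per library on a log axis for each junction gene at 0, 10 and 100 ng/mL of VEGF-C, with black bars at the mean of 5 libraries. Mean levels in unstimulated cells span from 0.813 RPKM for Jam2 to 291 RPKM for Cdh5, and Jup passes Jam3 at 100 ng/mL.

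The unequal rise of the catenins was tested as a ratio within each library, with an exact two-sided permutation test over samples and Benjamini-Hochberg adjustment over 9 ratio tests. With 5 libraries against 5, the smallest p it can give is 0.00794. Plakoglobin made up 17.7, 17.7, 13.6, 15.9 and 15.3% of the summed plakoglobin and beta-catenin RPKM in 100 ng/mL libraries A to E. It made up 10.87, 10.47, 10.51, 9.76 and 11.59% in unstimulated libraries, all below every 100 ng/mL library. The share was 16.01 ± 1.75% at 100 ng/mL and 10.64 ± 0.666% in unstimulated cells, a difference of 5.37 percentage points (exact permutation p = 0.00794, adjusted 0.0179). At 10 ng/mL it was 10.8 ± 1.21% (difference from unstimulated 0.192 points, exact permutation adjusted p = 0.802), and 100 ng/mL exceeded 10 ng/mL by 5.18 points (adjusted 0.0179).

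VE-cadherin rose by more than the catenins did together. The log2 ratio of summed Ctnnb1 and Jup RPKM to Cdh5 RPKM was -0.635 ± 0.0874 at 100 ng/mL and -0.453 ± 0.0507 in unstimulated cells, a difference of -0.182 (exact permutation adjusted p = 0.0179). It was -0.543 ± 0.0613 at 10 ng/mL, -0.0905 from unstimulated cells (exact permutation p = 0.0238, adjusted 0.0357). That call at 10 ng/mL was lost without unstimulated A, C or D and without 10 ng/mL A, B, C or D, at adjusted p-values of 0.0536 to 0.0714. Between the doses the difference was -0.0915 (exact permutation adjusted p = 0.102), and it passed without 100 ng/mL C (-0.121, adjusted p = 0.0408).

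JAM-C lost ground within its family. It made up 26.1 ± 1.63% of the summed RPKM of the 3 JAM genes at 100 ng/mL and 32.5 ± 2.85% in unstimulated cells, a difference of -6.40 percentage points (exact permutation p = 0.0159, adjusted 0.0286). Library ranges touched, with 28.3% in 100 ng/mL E and 28.1% in unstimulated E, and the adjusted p was 0.0571 without unstimulated A, C or D. The share was 35.5 ± 2.35% at 10 ng/mL, not passing against unstimulated cells (adjusted p = 0.116), and between the doses it differed (100 minus 10 ng/mL, -9.44 points, exact permutation adjusted p = 0.0179). JAM-A made up 73.8 ± 1.63% of the sum at 100 ng/mL and 67.0 ± 2.95% in unstimulated cells, and JAM-B 0.168% and 0.542%. The 3 genes summed to 123 ± 8.73 RPKM at 100 ng/mL and 150.4 ± 12.96 RPKM in unstimulated cells.

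**Figure D4:**
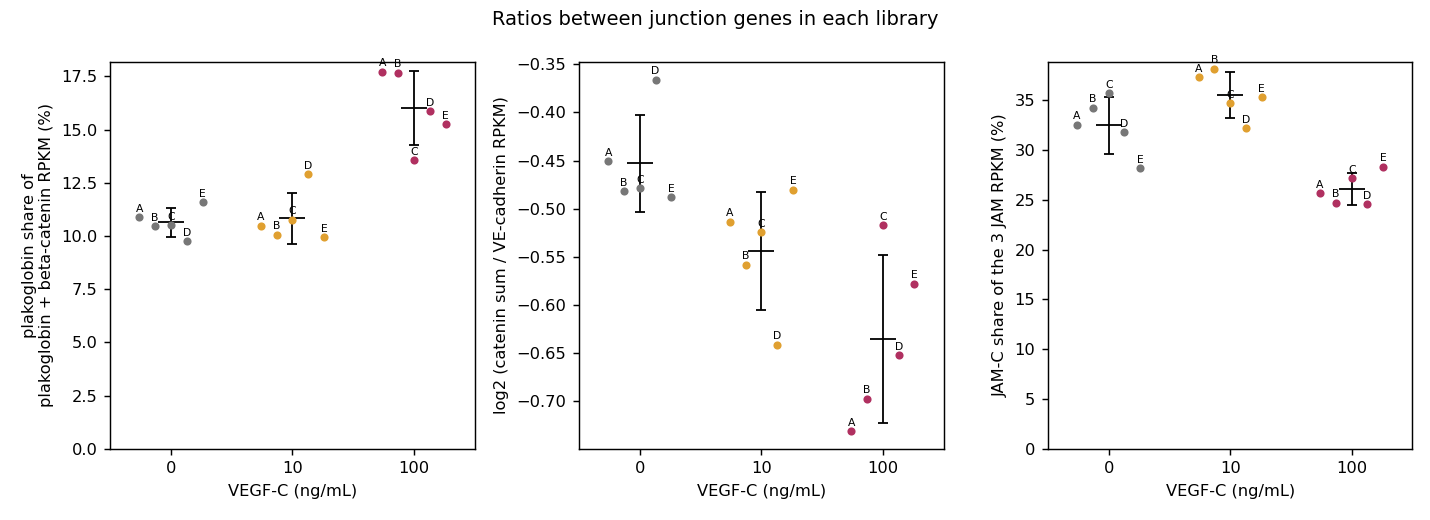
Per-library ratios between junction genes by VEGF-C dose, namely the plakoglobin share in percent, the log2 ratio of summed catenins to VE-cadherin, and the JAM-C share of the 3 JAM genes in percent. Black marks are the mean and SD of 5 libraries; the plakoglobin shares at 100 ng/mL, 13.6 to 17.7%, lie above all 10 other libraries.

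Among 29 other adherens junction genes tested, 8 rose and 12 fell at 100 ng/mL against unstimulated cells, with a median log2 fold change of -0.22. Of all genes tested, 21.4% were called higher and 21.5% lower in this comparison. The 2 largest rises named were in non-classical cadherins. Pcdh12, or VE-cadherin-2, an endothelial protocadherin, rose to 179.8 ± 29.0 CPM, against 37.9 ± 8.23 CPM in unstimulated cells (log2 fold change 2.25 ± 0.20, edgeR adjusted p = 5.52e-07), and Pcdh1 rose by 1.5 ± 0.17 (4.6e-06). The actin-linked Lmo7 rose by 1.5 ± 0.24 (0.000157), Afdn (afadin, listed as Mllt4) by 0.41 ± 0.07 (0.000252) and Ctnna1 (alpha-catenin) by 0.33 ± 0.08 (0.00521). Cdh2, which encodes N-cadherin, the cadherin by which endothelial cells contact mural cells and which mural cells also express, fell to 52.5 ± 13.3 CPM, against 102 ± 22.3 CPM in unstimulated cells (-0.96 ± 0.17, adjusted p = 0.000384). The actin-binding Actn1 (-0.36 ± 0.06, adjusted p = 0.000138) and Vcl, vinculin (-0.40 ± 0.12, 0.018), also fell. Against 10 ng/mL, 8 of these genes rose and 10 fell, where 19.9% of all genes were called higher and 20.6% lower.

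Among 36 other tight junction genes tested, of 44 listed with 8 below the filter, 7 rose and 13 fell at 100 ng/mL against unstimulated cells. The median log2 fold change was -0.18, and 21.4% of all genes rose and 21.5% fell. Amotl2, the angiomotin-like protein that links VE-cadherin to actin in endothelium, fell to 107 ± 46.2 CPM, against 562 ± 65.4 CPM in unstimulated cells (-2.39 ± 0.22, edgeR adjusted p = 8.4e-07). Cldn12 fell by 1.51 ± 0.21 on the log2 scale (3.35e-05), so the 2 claudins named moved in opposite directions. Ocln, occludin, fell to 16.1 ± 3.43 CPM, against 31.2 ± 8.34 CPM in unstimulated cells (-0.95 ± 0.20, 0.00119), and the polarity kinase gene Prkci fell by 0.72 ± 0.08 (7.29e-06). The scaffold gene Magi1 rose by 0.92 ± 0.10 (3.89e-06), and its relative Magi3 fell against 10 ng/mL (-0.49 ± 0.06, 7.64e-06).

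Plakoglobin also acts in desmosomes. Of 14 desmosomal genes listed, 9 passed the filter, of which 0 rose, 5 fell and 4 were not called at 100 ng/mL against unstimulated cells. Their median log2 fold change was -1.15, and 21.4% of all genes rose and 21.5% fell. Pkp2, plakophilin-2, fell to 41.5 ± 6.14 CPM, against 83.5 ± 13.1 CPM in unstimulated cells (-1.01 ± 0.12, edgeR adjusted p = 1.3e-05), Ppl (periplakin) by 2.25 ± 0.24 (3.19e-06) and Pkp1 by 2.81 ± 0.55 (0.000764). Dsp, desmoplakin, was near the limit of detection at 0.288 ± 0.315 CPM at 100 ng/mL and 0.61 ± 0.457 CPM in unstimulated cells and was not called (adjusted p = 0.206, and 0.0309 without 100 ng/mL B). Epithelial markers fell in the same libraries, as given above, and their part in these falls was not tested.

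Of 15 kinases and phosphatases that act on cadherins and catenins, 9 rose and 5 fell, with a median of 0.22. The shares over all genes were 21.4% and 21.5%. The Src-family kinase gene Fyn rose to 201 ± 25.9 CPM, against 77.1 ± 7.19 CPM in unstimulated cells (1.38 ± 0.10, edgeR adjusted p = 1.01e-07). Ptprm, a homophilic receptor phosphatase found at cell contacts, rose by 1.18 ± 0.12 (1.48e-06), Ptpn12 by 0.72 ± 0.05 (4.13e-08) and Ptk2b (Pyk2) by 0.69 ± 0.11 (0.000109). Ptprb, or VE-PTP, the phosphatase that associates with VE-cadherin, passed at an adjusted p of 0.0484 (0.46 ± 0.18), and the call was lost in 19 of 26 alternatives, at adjusted p-values of 0.0504 to 0.104, including each fit without unstimulated A, B, C or E, 10 ng/mL A, B or E, or 100 ng/mL A, C, D or E.

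Of 10 other endothelial contact genes tested, 6 rose and 3 fell, with a median of 0.32, against 21.4% and 21.5% of all genes. The gap junction gene Gja1 (connexin 43) rose to 418 ± 23.4 CPM, against 169 ± 15.4 CPM in unstimulated cells (1.31 ± 0.09, edgeR adjusted p = 6.87e-08), while Gja4 (connexin 37) fell by 2.46 ± 0.40 (0.000183). Icam2, an adhesion molecule at endothelial contacts, rose by 0.94 ± 0.09 (1.23e-06), and Tek, the angiopoietin receptor gene, by 0.52 ± 0.08 (9.53e-05). Emcn, a sialomucin of the endothelial surface, fell against 10 ng/mL (-0.66 ± 0.13, 0.000912). Pecam1, which encodes CD31, passed narrowly (0.19 ± 0.07, adjusted p = 0.0343) and lost the call in 12 of 26 alternatives, at adjusted p-values of 0.0506 to 0.11, among them fits without unstimulated C or E, 10 ng/mL E, or 100 ng/mL A, C or D. At 10 ng/mL no gene of these 5 lists was called against unstimulated cells.

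**Figure D5:**
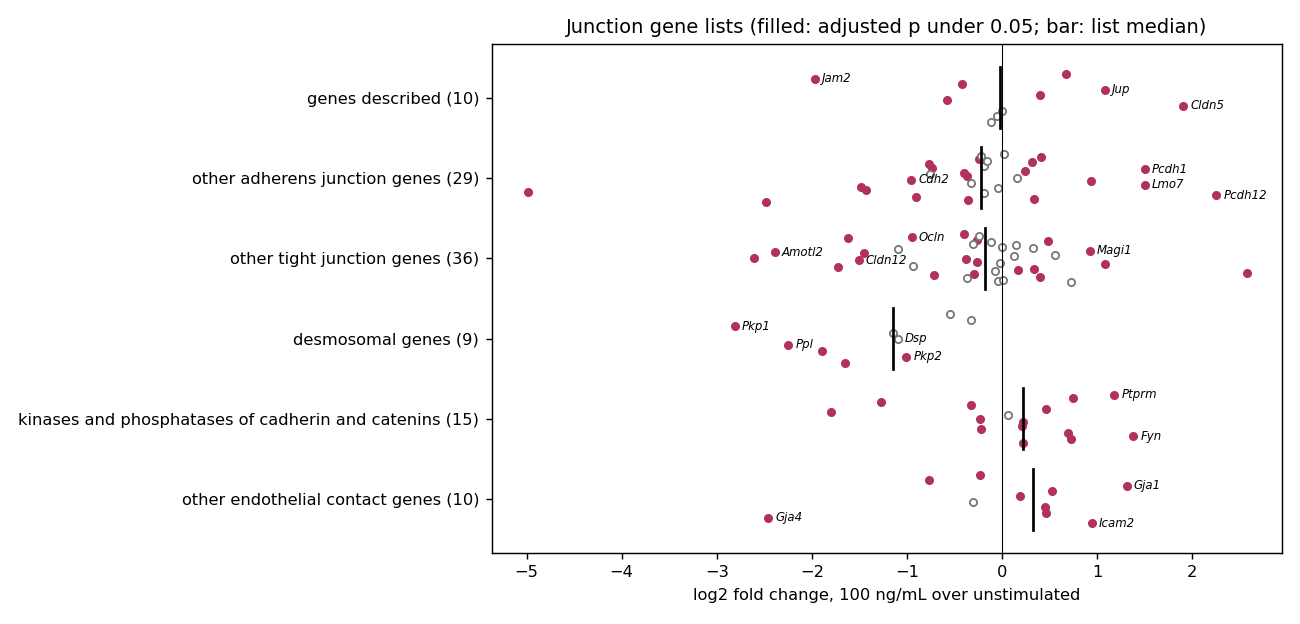
Log2 fold changes at 100 ng/mL over unstimulated cells (x axis) for the 10 genes described and the 5 lists of other junction genes (rows, number tested in brackets). Each point is a gene, filled where the adjusted p was under 0.05, black bars are list medians, and desmosomal genes have a median of -1.15 while plakoglobin, Jup, lies at 1.08.

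The genes whose pattern lay closest to 4 of the junction genes were found by the root-mean-square difference of centred log2(CPM + 0.5) over the 15 libraries, among 2784 genes. For Cdh5 they were Pqlc1 (0.057), Zeb1 (0.06) and Dgkz (0.063), and the nearest of the 10 junction genes was Ctnnb1 at 0.138. For Jup they were Sh2d3c (0.087) and the keratins Krt6a and Krt6b (0.088 each), which have identical values in every library, so that reads of the pair were not separated. For Cldn5 they were Tc2n (0.225), Megf6 (0.232) and Sgsm1 (0.268), and for Jam3 they included Efcab14 (0.08) and Trim56 (0.083). Tc2n, the nearest to Cldn5, was also lowest in library E of unstimulated, D of 10 ng/mL and B of 100 ng/mL cells.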

How the data were processed

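RNA from 15 libraries of mouse lymph node LECs, 5 at each of 0, 10 and 100 ng/mL of VEGF-C for 72 h, was poly-A selected and prepared with a stranded kit, per the labels' protocols. Groups and letters came from the sample titles. The authors deposited 1 table of 45706 genes holding, for each library, estimated counts and RPKM values, per the file headers; 98.2% of the non-zero counts were not whole. The RPKM values deposited by the authors equal the count per length over a total 1.86 to 1.92 times the count sum. FastQC, Bowtie2, limma, GRCm38 and mm10 are named in the submitters' processing notes. The sources used here name no counter, strand setting, rule for multiply matching reads or annotation release, so genes sharing sequence are uncertain. Gene coordinates were taken from GENCODE M21 (GRCm38).

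Estimated counts were rounded, filtered with filterByExpr (17650 genes), TMM-scaled and fitted with group as the only term over all 15 libraries in edgeR 4.0.16 (R 4.3.3), with quasi-likelihood tests and Benjamini-Hochberg adjustment over all genes at 0.05. Ratios were tested with exact permutation (scipy 1.17.1). Precision rests on 5 libraries a group; replicate libraries all differed beyond counting noise (smallest chi-square per degree of freedom 8.48). On simulated data for 100 ng/mL against unstimulated (17513 genes) the fit recovered 78, 93 and 98% of 1.5, 2 and 4-fold changes with 9 false calls. The simulation changed far fewer genes than were called in the data and drew each gene independently. These rates therefore need not hold for the data.

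The 10 genes, the lists and the alternatives were chosen with earlier results of these data known. Other junction genes were named by rule: the 4 called genes of each list with the smallest p, provided the mean log2 CPM reached 1, per comparison, plus partners and LEC markers named whatever their result; a few genes that these rules name are not reported here. Pattern likeness searched genes whose log2 CPM averaged 3 or more with an SD of 0.25 or more. Alternatives were DESeq2 1.42.0 size factors and Wald test, library size alone, no filter, 10 CPM in 5 libraries, limma 3.58.1 (voom, and on log2 of RPKM plus 1 or 0.1), only the 10 libraries compared, a replicate block, and fits without each library or without 3 libraries together; ratios were also taken from counts not divided by length and tested by sign-flip over the letters. Promoters came from RefSeq.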

Additional observations from a re-analysis of the deposited data

Results flagged for a closer look

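Within the 30 groups of 5 libraries formed by 10 genes and 3 doses, 2 held a library far from the other 4 relative to the range of the group, and chance gives about 1 in 20. Ctnnb1 at 100 ng/mL was lowest in library B, at 1834 CPM, while the other 4 libraries lay between 2333 and 2391 CPM. Library B was also the lowest of its group for Cdh5, Cldn5, Ctnnd1, F11r and Jam3, and not for Jup, Esam, Jam2 or Tjp1. Jam3 in unstimulated cells was lowest in library E, at 167 CPM, while the other 4 libraries lay between 235 and 256 CPM. Without the libraries 100 ng/mL B, unstimulated E and 10 ng/mL D, Ctnnb1 and Jam3 kept their calls at 100 ng/mL against unstimulated cells. Each of these libraries was the lowest of its group for both genes, so leaving them out also narrowed the spread.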

How the results depend on the processing

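The number of junction genes called stayed between 6 and 8 at 100 ng/mL against either lower dose, and at 0 at 10 ng/mL against unstimulated cells, under all 26 alternatives. Cdh5, Ctnnb1, Jup, Cldn5 and Jam3 kept direction and call in all 26 and Jam2 in all 25 that could be run for both comparisons with 100 ng/mL; log2(RPKM + 1) shrank the Jam2 difference to -0.572 against unstimulated cells and -0.448 against 10 ng/mL, since its levels are near 1 RPKM. A filter of 10 CPM left fewer genes tested and 4976 called over all genes at 100 ng/mL against unstimulated cells, in place of 7571. Values near 0 changed sign. Tjp1 at 100 ng/mL against unstimulated cells, 0.001 on the log2 scale, was -0.001 with DESeq2 size factors and its Wald test, -0.037 with library size alone, -0.015 without a filter, -0.031 with 10 CPM, -0.034 with either RPKM fit, -0.017 with only 10 libraries and -0.053 without the 3 libraries (-0.027 to 0.047 leaving out single libraries). At 10 ng/mL against unstimulated cells Jup, at 0.01, was -0.022 with library size alone, -0.028 and -0.03 with RPKM plus 1 and 0.1, and -0.048 without the 3 libraries (-0.047 to 0.049 leaving out single libraries); Ctnnb1 ranged over -0.056 to 0.006, Jam2 over -0.549 to 0.016 and the plakoglobin share over -0.327 to 0.43 points, and that share was -0.0899 without the 3 libraries. The cause was not tested.

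Leaving out single libraries, the plakoglobin share differed by 4.94 to 5.99 points (100 ng/mL against unstimulated) and 4.75 to 5.8 (against 10 ng/mL), the catenin ratio by -0.211 to -0.158, -0.106 to -0.0661 (10 ng/mL against unstimulated) and -0.121 to -0.0675 (between doses), and the JAM-C share by -7.48 to -5.60 and -10.3 to -8.79 points. Counts not divided by length changed no call of these ratios. Without the 3 libraries, at 4 against 4, none of these passed the adjustment (exact permutation adjusted p of 0.0514, and 0.0857 for the catenin ratio at 10 ng/mL). The differences at 0.0514 were all at the smallest p that the test can give with so few libraries. This fit therefore cannot decide whether those calls rest on the libraries left out. The plakoglobin differences were then 5.20 and 5.29, the catenin ratio -0.175 and at 10 ng/mL -0.0749, and the JAM-C differences -7.14 and -9.94.

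Same-lettered libraries did not deviate together (correlations across genes of -0.342 to 0.132), so the letters were not taken as pairs. Each library correlated best with another letter (0.21 to 0.786): 10 ng/mL A to E with unstimulated B, C, D, E and A (0.487 to 0.786), and 100 ng/mL A to E with 10 ng/mL C, D, E, A and B (0.21 to 0.428). The 3 libraries left out together matched each other in this way. The library 100 ng/mL B correlated best with 10 ng/mL D (0.428) and with unstimulated E (0.559), and 10 ng/mL D with unstimulated E (0.786). The labels give no such pairing, and no fit with these shifted pairs was made. The calls at 10 ng/mL therefore hold for unpaired libraries and for the same-letter block. With the letter as a replicate block 6, 0 and 7 junction genes were called at 100 ng/mL against unstimulated, 10 ng/mL against unstimulated and 100 against 10 ng/mL, and 7069, 0 and 6582 genes in all. In a sign-flip over the letters, 5 pairs could not pass for the shares and ratios (adjusted p of 0.141 to 0.161), whose differences are by construction the same: 5.37, 5.18, -0.182, -0.0905, -6.40 and -9.44. Counting depth limits Jam2 most, at 36 to 120 counts per library at 100 ng/mL.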
